A study of Arabidopsis thaliana with 10 samples.

Results

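The 33 genes described here are the photosynthesis genes of the Arabidopsis thaliana chloroplast genome that an Affymetrix ATH1 array measured with a probe set of their own. They were chosen by symbol alone: probe sets annotated to exactly 1 gene whose symbol, written with lower-case first letters, was psa, psb or pet with 1 capital letter, an ATP synthase gene (atpA, atpB, atpE, atpF, atpH or atpI) or rbcL. Nuclear genes of the same complexes are written in capitals and did not enter. Each of the 33 genes had exactly 1 such probe set, out of 22746 probe sets tested and 13350 genes with a probe set of their own, and all 33 lay on the plastid genome in RefSeq. They comprised 15 genes of photosystem II, 5 of photosystem I, 6 of the cytochrome b6f complex, 6 of the ATP synthase and the gene of the large Rubisco subunit.

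Total RNA of seedlings grown on plates was hybridised to 10 arrays in 5 groups of 2. The plants were of 2 natural accessions, Col, the source of the reference genome, and C24. Col was sampled at room temperature and after 24 h at 4 °C, and C24 at room temperature, after 3 h and after 24 h at 4 °C, so that 3 h of cold was compared in C24 alone. All plants shared growth on 1/2 MS plates at 23 and 18 °C, and the labels name no mutation or transgene. The sample labels say leaf tissue and 20 days of age, the series text seedlings of 14 days with biological replicates. The p-values here rest on the spread between the 2 arrays within groups. That spread is taken over all 5 groups and drawn by limma towards the spread of all probe sets. Values are deposited log2 signals, and each change is a difference of log2 signals between group means from one limma fit over all probe sets. A change was called at an adjusted p below 0.05.

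Chloroplasts keep a small genome of their own, transcribed by a bacterial-type RNA polymerase with nuclear-encoded sigma factors and by a phage-type nuclear-encoded polymerase. Most plastid photosynthesis genes sit in clusters whose long transcripts are cut, edited and trimmed by nuclear-encoded RNA-binding proteins. Plastid-encoded subunits then meet nuclear-encoded partners in the thylakoid membrane: photosystem II takes electrons from water, the cytochrome b6f complex hands them on and pumps protons, photosystem I reduces ferredoxin, and the ATP synthase uses the proton gradient. Cold slows carbon fixation more than light capture, and the photosystem II core is the part of the chain most prone to light damage.

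After 24 h of cold the plastid photosynthesis genes lay mostly below their room temperature signals in both ecotypes, although in each ecotype 21 of the 33 did not pass the test. In Col, 11 of the 33 fell and 1 rose, beside 25.9% of all probe sets lower and 23.2% higher, and the members' median change was -0.58 against 0.0079 over all probe sets. In C24, 12 fell and none rose after 24 h, beside 25.4% lower and 24.1% higher over all probe sets (49.5% in either direction, medians -0.53 and -0.020). After 3 h in C24, 9 fell and none rose, beside 23.2% and 22.5% (45.7% in either direction, medians -0.26 and -0.037). At an unadjusted p below 0.05 in the same limma fit, 1 gene was higher in C24 after 24 h, petN, and 0 after 3 h. The 24 h responses of the 4 genes of the psbE cluster were lower in C24 than in Col, by a test of the difference itself. C24 gave higher signals than Col for 11 of the 33 genes at room temperature, beside 32.7% of all probe sets (1 of the 33 was lower, beside 23.4%, and 56.0% of all probe sets were called in either direction), and for 14 after 24 h of cold, beside 28.1%.

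Read against that background, the members were called less often in total than probe sets overall in 6 of the 7 comparisons. In Col, 36.4% of them were called in either direction, against 49.1% of all probe sets, and for the difference of the 24 h responses it was 15.2% against 39.5%. The exception was C24 against Col after 24 h, with 54.5% of members and 49.3% of all probe sets. The Col count moved from 12 to 25 without Col 24 h replicate 2, and to 7 without Col room temperature replicate 1, Col room temperature replicate 2 or Col 24 h replicate 1. Leaving out single arrays moved the count after 24 h between ecotypes, and that of the difference of responses, both up and down. Both rose most without Col 24 h replicate 2.

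Replicate arrays lay farther apart for these genes than for the array as a whole. Their median pooled SD within groups was 0.361, against 0.0884 over all probe sets, and 24 of the 33 lay above the 95th percentile of all probe sets. Replicate 2 lay above replicate 1 for 28 of the 33 genes in Col after 24 h (median gap 0.60) and for 29 in C24 at room temperature (0.47), and below it for 33 of 33 in C24 after 24 h (-0.48). In Col at room temperature and C24 after 3 h the median gaps were -0.051 and -0.17. The other 36 plastid-encoded genes measured had median gaps of the same signs in all 5 groups (-0.083 in Col at room temperature, 0.72 in Col after 24 h, and 0.64 at room temperature, -0.12 after 3 h and -0.49 after 24 h in C24). The 8 measured genes listed as nuclear subunits of the same complexes had median gaps between -0.070 and 0.020. The control probe set for 25S rRNA, an RNA that like most plastid RNA lacks the stable poly-A tail of nuclear messengers, had gaps of -0.04 in Col at room temperature, 0.57 in Col after 24 h, and 0.45 at room temperature, 0.19 after 3 h and -0.29 after 24 h in C24. The sources used here do not say how cDNA synthesis was primed, and the part of the RNA class or of labelling in these gaps was not tested.

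**Figure D1:**
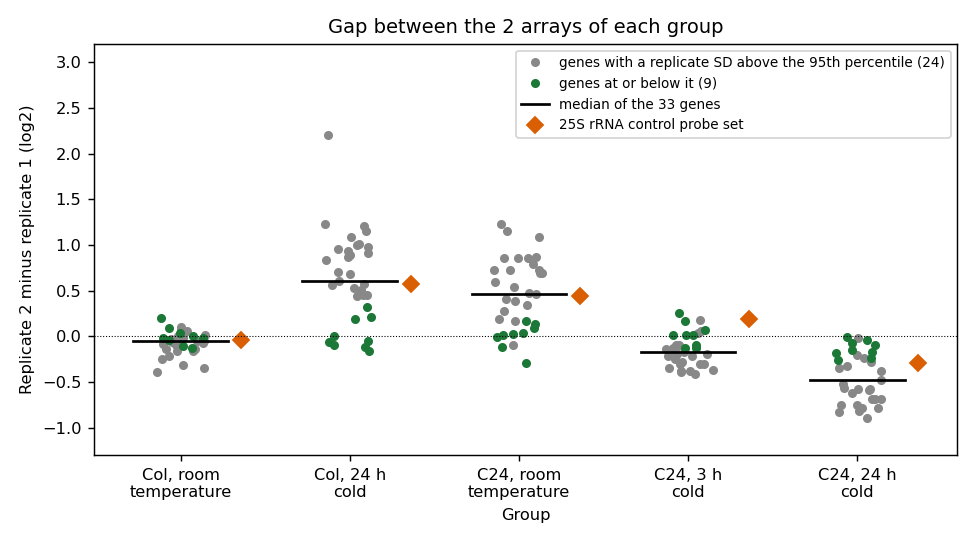
Gap between the 2 arrays of each group (replicate 2 minus replicate 1, log2) for the 33 plastid photosynthesis genes. Each point is 1 gene, grey for the 24 genes whose pooled replicate SD lay above the 95th percentile of all probe sets and green for the 9 at or below it, the line is the median of the 33 genes, and the diamond is the 25S rRNA control probe set. The median of the 33 genes lies at 0.60 in Col after 24 h and at -0.48 in C24 after 24 h.

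The 9 genes at or below that percentile were psbK, psbI, psbM, psbJ, psbL, psbF, psbE, psaJ and petD. They held 5 of the 11 falls in Col, 7 of the 9 in C24 after 3 h, 7 of the 12 in C24 after 24 h and all 4 falls in the difference of the 24 h responses. The limma test divides by the replicate spread, so genes picked for a small spread are called more readily. These counts therefore do not show that the 9 genes responded more than the other 24. The median SE of a change was 0.25 over the 33 genes, against 0.088 over all probe sets. The single largest replicate SD of all 22746 probe sets belonged to atpI, at 0.83.

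Markers and controls of the samples were as follows. All 4 measured green leaf markers (of 28 symbols listed) lay above the upper quartile of every array, with a mean signal of 13.4 on both Col room temperature arrays and 12.9 on both Col 24 h arrays, and of 13.3, from 13.1 to 13.2 and 12.9 in C24 at room temperature, after 3 h and after 24 h. By limma all 4 fell after 24 h in Col and in C24 (medians -0.37 and -0.24) and 2 after 3 h, beside 25.9%, 25.4% and 23.2% of all probe sets lower. The falls of the plastid genes run alongside lower leaf markers. Of 19 root symbols listed, 3 were measured, and their mean signal was 8.69 and 8.93 in Col at room temperature, 8.11 and 8.10 in Col after 24 h, 6.78 and 6.85 in C24 at room temperature, 7.86 and 7.89 in C24 after 3 h and 7.40 and 7.39 in C24 after 24 h. No root marker lay under the lower quartile on any array, although the tissue is labelled leaf. All 3 root markers fell by limma in Col after 24 h (median -0.56), beside 25.9% of all probe sets lower. Leaf and root markers were thus both lower there. In C24 all 3 root markers rose after 3 h (median 0.66) and 2 after 24 h (0.39), beside 22.5% and 24.1% of all probe sets higher. Spiked poly-A controls lay between 5.78 and 5.83 on the Col arrays and between 6.91 and 7.25 on the C24 arrays. The 3' minus 5' signal of the GAPDH control ran from 0.095 to 0.31 in Col and from 0.37 to 0.86 in C24. The 25S rRNA control moved with the groups as well. Its signal was 11.10 and 11.06 at room temperature and 10.19 and 10.77 after 24 h in Col, and 9.98 and 10.42 at room temperature, 11.99 and 12.18 after 3 h and 10.29 and 10.001 after 24 h in C24. Both Col cold arrays lay below both Col room temperature arrays, the C24 3 h arrays were the highest of the 10, and both C24 24 h arrays lay between the 2 C24 room temperature arrays. The comparisons with cold and between ecotypes below run alongside these values, and their part was not tested. In whole tissue, fewer green cells and less RNA per cell cannot be told apart.

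**Figure D2:**
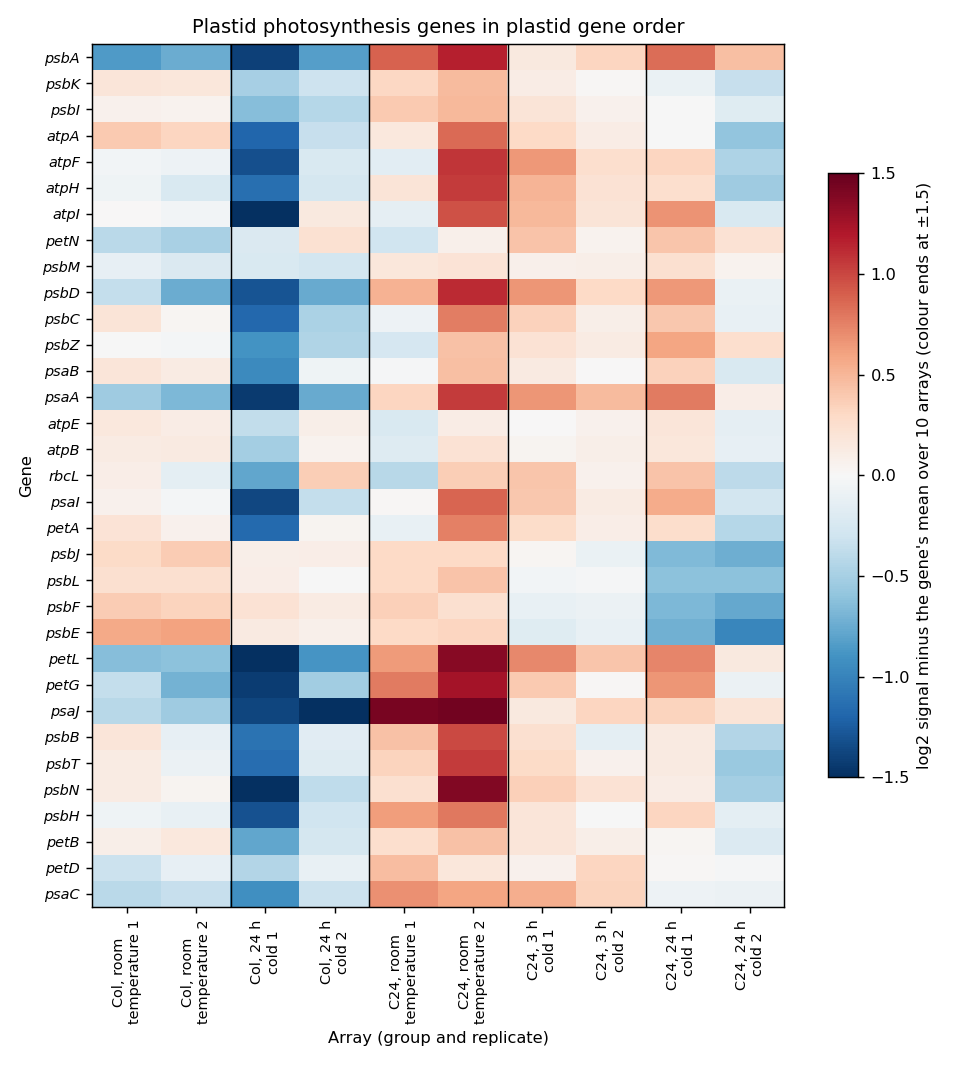
Signal of each of the 33 genes on each of the 10 arrays, as the log2 signal minus the gene's mean over the 10 arrays (colour, ending at ±1.5), with genes in the order of the plastid genome and arrays grouped by ecotype and treatment. Col 24 h replicate 1 is blue and C24 room temperature replicate 2 red in most rows, while the psbJ to psbE rows are blue in C24 after 24 h and near their mean in Col after 24 h.

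The psbE cluster stepped down with time in the cold in C24. It consists of psbE and psbF, which encode the alpha and beta subunits of the cytochrome inside photosystem II, and psbL and psbJ, which encode small membrane-spanning subunits needed for electron flow and assembly there. The 4 genes are neighbours on the plastid genome and are transcribed together. All 4 fell after 3 h and again between 3 h and 24 h in C24, 1.97-fold to 2.23-fold below room temperature after 24 h, and their change after 24 h in Col was smaller.

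The signal of psbE was 11.69 and 11.73 at room temperature and 11.26 and 11.20 after 24 h in Col, and 11.42 and 11.44 at room temperature, 10.94 and 11.01 after 3 h and 10.40 and 10.15 after 24 h in C24. Both cold groups of C24 lay below C24 at room temperature, and the 24 h arrays lay below the 3 h arrays. In C24 its change after 24 h was -1.15 ± 0.087 (SE, limma adjusted p = 5.54e-07), a 2.23-fold lower signal, and in Col it was -0.48 ± 0.087 (SE, limma adjusted p = 0.000706). The test of the difference between these responses gave -0.67 ± 0.12 (SE, limma adjusted p = 0.00109).

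For psbF the arrays read 12.50 and 12.46 at room temperature and 12.33 and 12.24 after 24 h in Col, and 12.47 and 12.36 at room temperature, 12.01 and 12.03 after 3 h and 11.44 and 11.35 after 24 h in C24. Its 2 arrays in each group lay close together, and the C24 24 h arrays were the lowest of the 10. The gene fell 2.03-fold in C24 after 24 h (-1.02 ± 0.075, SE, limma adjusted p = 4.43e-07), and its change in Col was -0.19 ± 0.075 (SE, limma adjusted p = 0.0546), which missed the threshold. The difference of responses, -0.83 ± 0.11 (SE, limma adjusted p = 7.65e-05), was the furthest from 0 of the 4 called falls in that comparison.

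The arrays of psbL read 9.34 and 9.35 at room temperature and 9.21 and 9.10 after 24 h in Col, and 9.40 and 9.53 at room temperature, 9.06 and 9.09 after 3 h and 8.49 on both arrays after 24 h in C24. Its changes were -0.98 ± 0.074 (SE, limma adjusted p = 5.67e-07) in C24 after 24 h and -0.19 ± 0.074 (SE, limma adjusted p = 0.0538) in Col, with a difference of responses of -0.79 ± 0.10 (SE, limma adjusted p = 0.000103). For psbJ the arrays read 11.13 and 11.22 at room temperature and 10.93 and 10.94 after 24 h in Col, and 11.14 on both arrays at room temperature, 10.87 and 10.74 after 3 h and 10.18 and 10.11 after 24 h in C24. As for psbL, its C24 24 h arrays lay below all other arrays. It fell in C24 after 24 h (-0.996 ± 0.074, SE, limma adjusted p = 4.74e-07) and by less in Col (-0.24 ± 0.074, SE, limma adjusted p = 0.017), with a difference of responses of -0.75 ± 0.10 (SE, limma adjusted p = 0.000141). The Col call of psbJ was lost without Col room temperature replicate 2 (limma adjusted p = 0.111), Col 24 h replicate 1 (0.058) or Col 24 h replicate 2 (0.0523).

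After 3 h in C24 the 4 genes had already fallen, by limma, with changes of -0.46 for psbE, -0.40 for psbF, -0.39 for psbL and -0.33 for psbJ on the log2 scale (adjusted p from 0.00111 to 0.00305). From 3 h to 24 h they fell again, with changes of -0.70, -0.62, -0.59 and -0.66 in the same order. These 2 steps share the 3 h arrays, and the 3 h and 24 h changes share the C24 room temperature arrays. In the comparison of 24 h with 3 h, 6 of the 33 genes fell and none rose, beside 22.5% lower and 21.7% higher over all probe sets (44.3% in either direction), and at an unadjusted p below 0.05 1 gene, psbA, was higher. The 6 were the 4 cluster genes with psbK and psaC.

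At room temperature the cluster differed little between ecotypes. Only psbE was called there, lower in C24 with a difference of -0.28 ± 0.087 (SE, limma adjusted p = 0.0171), and that call was lost without Col room temperature replicate 2 (0.0777), C24 room temperature replicate 1 (0.0704) or C24 room temperature replicate 2 (0.0508). The limma 95% intervals of the other 3 were -0.23 to 0.10 for psbF, -0.041 to 0.29 for psbL and -0.20 to 0.13 for psbJ. After 24 h all 4 were lower in C24, with differences of -0.95 for psbE, -0.89 for psbF, -0.79 for psbJ and -0.67 for psbL, and they were the only members called lower in C24 at that time, beside 21.2% of all probe sets. LPA66, the nuclear protein that edits the psbF transcript, fell in C24 by limma, with changes of -0.73 (adjusted p = 1.99e-05) after 3 h and -0.26 (adjusted p = 0.0194) after 24 h. Its Col value was -0.21 (adjusted p = 0.0524), and its difference of the 24 h responses was -0.050. From 3 h to 24 h in C24 LPA66 rose by 0.47, called by limma, while the cluster genes fell. After 24 h it was 0.51 higher in C24 than in Col. Any part of LPA66 in the changes of the cluster was not tested.

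**Figure D3:**
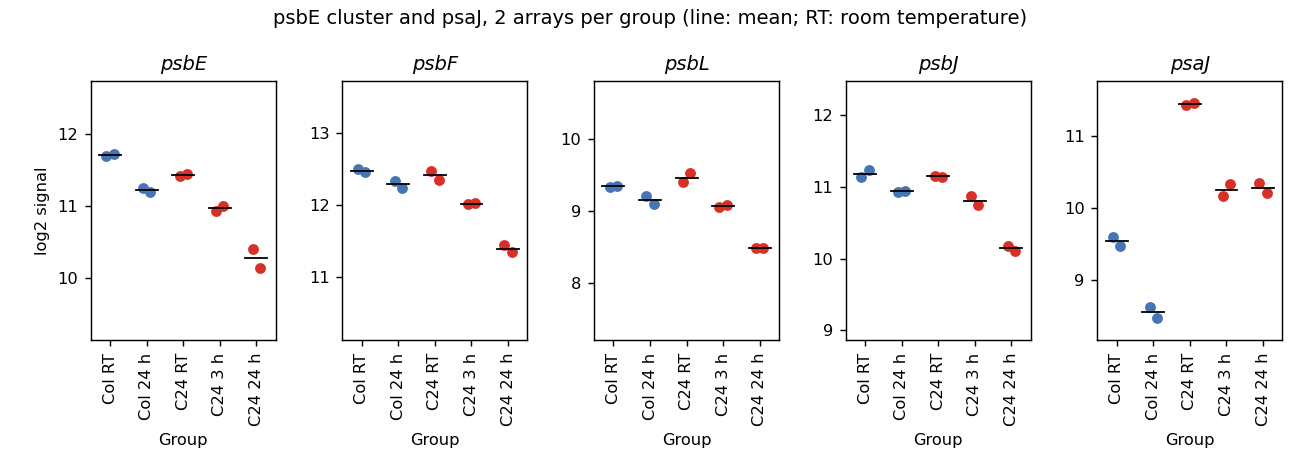
Log2 signal of the 4 psbE cluster genes and of psaJ on each array, by group (Col in blue, C24 in red, RT for room temperature), with points for the 2 arrays and a line for their mean. Each panel spans the same number of log2 units around its gene's midrange. The cluster genes step down from C24 at room temperature to 3 h and to 24 h, psbE from 11.42 and 11.44 to 10.40 and 10.15, while psaJ separates the ecotypes in every condition.

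Of the reaction-centre genes of photosystem II, psbA encodes the D1 protein, which is damaged by light and replaced throughout the day. Its signal was 8.66 and 8.76 at room temperature and 8.11 and 8.68 after 24 h in Col, and 10.40 and 10.68 at room temperature, 9.66 and 9.83 after 3 h and 10.35 and 9.96 after 24 h in C24. Each C24 array lay above each Col array. It fell after 3 h in C24 (-0.79 ± 0.18, SE, limma adjusted p = 0.00348), whereas its 24 h values were -0.38 ± 0.18 (SE, limma adjusted p = 0.101) in C24 and -0.31 ± 0.18 (SE, limma adjusted p = 0.177) in Col. C24 was higher by 1.83 ± 0.18 (SE, limma adjusted p = 4.96e-06) at room temperature, a 3.55-fold difference, and by 1.76 ± 0.18 (SE, limma adjusted p = 9.29e-06) after 24 h. The partner of D1, the D2 protein, is encoded by psbD, whose arrays read 8.05 and 7.67 at room temperature and 7.13 and 7.66 after 24 h in Col, and 8.94 and 9.54 at room temperature, 9.08 and 8.72 after 3 h and 9.06 and 8.32 after 24 h in C24. No change of psbD with cold was called, and its 95% interval after 24 h was -1.06 to 0.12 in Col and -1.14 to 0.045 in C24. Again all C24 arrays lay above all Col arrays, with differences of 1.38 ± 0.27 (SE, limma adjusted p = 0.00109) at room temperature and 1.298 ± 0.27 (SE, limma adjusted p = 0.00189) after 24 h.

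The inner antenna proteins that feed light energy to this centre are encoded by psbB and psbC. The signal of psbC was 10.57 and 10.41 at room temperature and 9.19 and 9.90 after 24 h in Col, and 10.29 and 11.15 at room temperature, 10.71 and 10.46 after 3 h and 10.78 and 10.27 after 24 h in C24. It fell in Col, with a change of -0.94 ± 0.28 (SE, limma adjusted p = 0.0147). That call was lost without Col room temperature replicate 1 (limma adjusted p = 0.0802) or Col 24 h replicate 1 (0.151) and with an intensity trend and robust prior in the fit (0.104). Its C24 value after 24 h was -0.20. After 24 h it was higher in C24 (0.98 ± 0.28, SE, limma adjusted p = 0.0123), which missed the threshold without C24 24 h replicate 1 (0.103) or Col 24 h replicate 1 (0.128) and with that prior (0.0924). The values of psbB ranged over the arrays from 6.60 to 8.70, with a called fall in C24 after 24 h (-0.87 ± 0.29, SE, limma adjusted p = 0.0273) and -0.67 ± 0.29 (SE, limma adjusted p = 0.0794) in Col. Without C24 room temperature replicate 2 or C24 24 h replicate 2 the adjusted p of psbB was 0.198 and 0.199, and with the trend and robust prior it was 0.147. The responses of psbB and psbC to 24 h of cold were not called different between ecotypes (-0.20 and 0.75).

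Small subunits stabilise the photosystem II core and its dimer. Of these, psbK and psbI, neighbours on the genome, fell in all 3 comparisons with room temperature. The psbK arrays read 12.44 and 12.43 at room temperature and 11.76 and 11.94 after 24 h in Col, and 12.56 and 12.73 at room temperature, 12.37 and 12.27 after 3 h and 12.15 and 11.91 after 24 h in C24. In Col both cold arrays lay below both room temperature arrays, as did both cold groups in C24. Its change was -0.58 ± 0.10 (SE, limma adjusted p = 0.000494) in Col, -0.33 after 3 h and -0.61 ± 0.10 (SE, limma adjusted p = 0.000307) after 24 h in C24, and its difference of responses was -0.029 (95% interval -0.34 to 0.28). The step from 3 h to 24 h was called too (-0.29 ± 0.10, SE, limma adjusted p = 0.0364) and was lost without C24 3 h replicate 1 (0.172), C24 3 h replicate 2 (0.0643) or C24 24 h replicate 2 (0.289), and with arrays centred on their medians (0.0868).

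The psbI arrays read 11.85 and 11.84 at room temperature and 11.15 and 11.36 after 24 h in Col, and 12.19 and 12.28 at room temperature, 11.99 and 11.86 after 3 h and 11.79 and 11.62 after 24 h in C24. Its C24 arrays lay above the Col arrays of the same treatment, by 0.39 ± 0.093 (SE, limma adjusted p = 0.00411) at room temperature and 0.44 ± 0.093 (SE, limma adjusted p = 0.00208) after 24 h. After 24 h it fell in both ecotypes, with changes of -0.59 ± 0.093 (SE, limma adjusted p = 0.000275) in Col and -0.53 ± 0.093 (SE, limma adjusted p = 0.000493) in C24, and the difference of the responses was 0.054 (95% interval -0.24 to 0.34). The 3 h calls of psbK and psbI both missed the threshold when C24 3 h replicate 2 (limma adjusted p = 0.116 and 0.123) or C24 room temperature replicate 2 (0.146 and 0.105) was left out.

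The small subunit gene psbM had no called change with cold. Its signals ran from 13.40 to 13.91, and its 24 h values were -0.081 in Col (95% interval -0.26 to 0.094) and -0.038 in C24 (-0.21 to 0.14), among the narrowest intervals of the 33. C24 was higher by 0.36 ± 0.08 (SE, limma adjusted p = 0.00269) at room temperature and 0.40 ± 0.08 (SE, limma adjusted p = 0.00148) after 24 h.

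The gene psbZ, whose product sits at the edge of the photosystem II core where antenna complexes attach, was the only member with a called difference of responses in the positive direction. Its arrays read 12.05 and 12.03 at room temperature and 11.16 and 11.61 after 24 h in Col, and 11.80 and 12.50 at room temperature, 12.28 and 12.18 after 3 h and 12.65 and 12.30 after 24 h in C24. In Col both cold arrays lay below both room temperature arrays, whereas in C24 the room temperature arrays spanned the value of C24 24 h replicate 2. It fell in Col (-0.65 ± 0.20, SE, limma adjusted p = 0.0194), and its C24 value after 24 h was 0.32 ± 0.20 (SE, limma adjusted p = 0.221). The difference of the responses was 0.98 ± 0.29 (SE, limma adjusted p = 0.0184). That call was lost without Col room temperature replicate 1 (0.0502), Col 24 h replicate 1 (0.0784), C24 room temperature replicate 1 (0.0564) or C24 24 h replicate 1 (0.0711), and with an intensity trend and robust prior (0.111). The Col fall was lost without Col room temperature replicate 1 (0.0762), Col room temperature replicate 2 (0.0695) or Col 24 h replicate 1 (0.17), and with that prior (0.112). After 24 h psbZ was higher in C24 by 1.09 ± 0.20 (SE, limma adjusted p = 0.000937), and its room temperature difference was 0.11.

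In the psbB cluster, psbT and psbH encode further small subunits, psbH a phosphoprotein, and psbN, on the opposite strand between them, a protein needed to assemble the photosystem rather than a subunit. The Col 24 h arrays of psbN were 6.52 and 7.75 and its C24 room temperature arrays 8.37 and 9.52, so both groups had arrays more than 1 log2 unit apart. The fall of psbN in Col was called (-1.08 ± 0.39, SE, limma adjusted p = 0.0397), and in C24 after 24 h it was -1.01 ± 0.39 (SE, limma adjusted p = 0.0522). The Col call was lost without Col room temperature replicate 1 (0.134), Col room temperature replicate 2 (0.107) or Col 24 h replicate 1 (0.367), and also without arrays outside the comparison, C24 3 h replicate 1 or 2 (0.0559 in both cases). For psbT the called fall was in C24 after 24 h (-0.90 ± 0.31, SE, limma adjusted p = 0.0307). It was lost without C24 room temperature replicate 2 (0.247) or C24 24 h replicate 2 (0.234). The gene psbH fell in Col (-0.71 ± 0.25, SE, limma adjusted p = 0.0364) and was higher in C24 at room temperature (0.80 ± 0.25, SE, limma adjusted p = 0.0191) and after 24 h (0.89 ± 0.25, SE, limma adjusted p = 0.0127). Its Col fall was lost without Col room temperature replicate 1 (0.125), Col room temperature replicate 2 (0.101) or Col 24 h replicate 1 (0.368), and with only the arrays compared in the fit (0.0685). Its room temperature difference was lost without Col room temperature replicate 1 (0.0631), Col room temperature replicate 2 (0.0787) or C24 room temperature replicate 2 (0.0931), and its 24 h difference without Col 24 h replicate 1 (0.0988) or C24 24 h replicate 1 (0.106). An intensity trend with a robust prior in the fit also ended the calls of psbN in Col (0.177), psbT in C24 after 24 h (0.155) and psbH in Col (0.162), at room temperature (0.112) and after 24 h between ecotypes (0.0925).

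Counted together, 8 of the 15 photosystem II genes fell in Col, 7 in C24 after 3 h and 8 in C24 after 24 h, beside 25.9%, 23.2% and 25.4% of all probe sets lower. None of the 15 rose by limma in any of the 3. At an unadjusted p below 0.05 the same fit gave 0 higher in all 3.

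Among the 5 genes of photosystem I, psaJ had the smallest SE. It encodes a small hydrophobic subunit that steadies the docking of plastocyanin. Its signal was 9.60 and 9.48 at room temperature and 8.63 and 8.48 after 24 h in Col, and 11.44 and 11.46 at room temperature, 10.17 and 10.34 after 3 h and 10.35 and 10.21 after 24 h in C24. The groups did not overlap between ecotypes or between room temperature and cold, and the 3 h and 24 h arrays of C24 overlapped. It fell in Col, with a change of -0.99 ± 0.091 (SE, limma adjusted p = 4e-06). In C24 the changes were -1.20 ± 0.091 (SE, limma adjusted p = 9.69e-07) after 3 h and -1.17 ± 0.091 (SE, limma adjusted p = 6.96e-07) after 24 h. From 3 h to 24 h its difference was 0.028 (limma 95% interval -0.17 to 0.23). At room temperature C24 was 3.75-fold higher (1.91 ± 0.091, SE, limma adjusted p = 1.18e-08), and after 24 h 3.3-fold (1.72 ± 0.091, SE, limma adjusted p = 5.26e-08), while the difference of responses was -0.18 (95% interval -0.47 to 0.099).

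The next genes beyond psaJ on the plastid genome, the ribosomal protein genes rpl33 and rps18, are not photosynthesis genes and were measured in the list of other plastid-encoded genes. C24 exceeded Col at room temperature by 1.62 (adjusted p = 2.19e-08) for rpl33 and 1.89 (adjusted p = 4.01e-09) for rps18 by limma. After 24 h of cold both genes had fallen, with changes of -0.99 in Col and -1.17 in C24 for rpl33 and -1.57 and -1.14 for rps18. Both were named for their place beside psaJ after their values were seen, so their likeness to psaJ is not a test. On the other side of psaJ lies petG, described below with the cytochrome b6f genes.

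The gene psaC encodes the subunit that carries the terminal iron-sulfur clusters and hands electrons to ferredoxin. Its arrays read 4.63 and 4.70 at room temperature and 4.12 and 4.72 after 24 h in Col, and 5.73 and 5.64 at room temperature, 5.59 and 5.37 after 3 h and 4.97 and 4.95 after 24 h in C24. Its signal lay under the lower quartile of the array in Col 24 h replicate 1, so it was not shown to be above background there. In C24 it fell after 24 h (-0.72 ± 0.15, SE, limma adjusted p = 0.00202), with -0.20 after 3 h, and its step from 3 h to 24 h was called (-0.52 ± 0.15, SE, limma adjusted p = 0.0167). That step was lost without C24 3 h replicate 1 (0.122), C24 24 h replicate 1 (0.0595) or C24 24 h replicate 2 (0.0651). C24 was higher at room temperature (1.01 ± 0.15, SE, limma adjusted p = 0.000166) and after 24 h (0.54 ± 0.15, SE, limma adjusted p = 0.0118). The latter was lost without Col 24 h replicate 1 (0.086).

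The large reaction-centre proteins of photosystem I are encoded by psaA and psaB, adjacent genes of a shared transcript. The psaA arrays read 6.24 and 6.10 at room temperature and 5.34 and 6.02 after 24 h in Col, and 7.09 and 7.82 at room temperature, 7.44 and 7.25 after 3 h and 7.55 and 6.86 after 24 h in C24. All C24 arrays lay above all Col arrays, with differences of 1.29 ± 0.27 (SE, limma adjusted p = 0.00183) at room temperature and 1.53 ± 0.27 (SE, limma adjusted p = 0.000662) after 24 h. For psaB the arrays read 13.12 and 13.06 at room temperature and 11.98 and 12.87 after 24 h in Col, and 12.92 and 13.39 at room temperature, 13.08 and 12.94 after 3 h and 13.28 and 12.71 after 24 h in C24, and the ecotypes overlapped. Its differences were 0.061 at room temperature and 0.57 after 24 h, neither called. No cold change of either gene was called, with 24 h values in Col of -0.49 for psaA and -0.66 ± 0.26 (SE, limma adjusted p = 0.0525) for psaB. The small subunit gene psaI had a 24 h value in Col of -0.88 ± 0.35 (SE, limma adjusted p = 0.056) and was higher in C24 after 24 h (1.004 ± 0.35, SE, limma adjusted p = 0.0326). That call was lost without Col 24 h replicate 1 (0.295) or C24 24 h replicate 1 (0.251), with only the arrays compared (0.0543) and with an intensity trend and robust prior (0.156).

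In the cytochrome b6f complex, petB encodes the cytochrome that binds quinones and petA cytochrome f, which passes electrons to plastocyanin. The petB arrays read 12.60 and 12.67 at room temperature and 11.73 and 12.24 after 24 h in Col, and 12.76 and 12.95 at room temperature, 12.69 and 12.60 after 3 h and 12.54 and 12.31 after 24 h in C24. Both Col cold arrays lay below all other arrays. It fell in Col (-0.65 ± 0.14, SE, limma adjusted p = 0.00285) and in C24 after 24 h (-0.43 ± 0.14, SE, limma adjusted p = 0.0273). The C24 fall was lost without C24 room temperature replicate 2 (0.161) or C24 24 h replicate 2 (0.182) and with an intensity trend and robust prior (0.118). After 24 h it was higher in C24 (0.44 ± 0.14, SE, limma adjusted p = 0.0255), lost without Col 24 h replicate 1 (0.249) or C24 24 h replicate 1 (0.169). That difference was also lost with that prior (0.109), with only the arrays compared (0.0664) and with quantiles normalised once more (0.0718). For petA no comparison was called, and its Col 24 h arrays were 9.66 and 10.87. For petD, which encodes subunit IV, 7 of the 10 arrays lay under the lower quartile, and the called difference at room temperature (0.54 ± 0.13, SE, limma adjusted p = 0.005) involved Col signals of 4.07 and 4.27 that are not shown to be above background. It was lost without C24 room temperature replicate 1 (0.0543).

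The small subunits of the complex are encoded by petG, petL and petN. The petL arrays read 6.22 and 6.25 at room temperature and 4.9998 and 5.98 after 24 h in Col, and 7.4997 and 8.23 at room temperature, 7.58 and 7.28 after 3 h and 7.60 and 7.01 after 24 h in C24. The arrays of C24 all lay above those of Col, with differences of 1.63 ± 0.30 (SE, limma adjusted p = 0.000811) at room temperature and 1.81 ± 0.30 (SE, limma adjusted p = 0.000454) after 24 h, a 3.09-fold and a 3.51-fold higher signal. For petG, next to it, the arrays read 5.38 and 5.04 at room temperature and 4.32 and 5.23 after 24 h in Col, and 6.52 and 6.99 at room temperature, 6.14 and 5.76 after 3 h and 6.41 and 5.65 after 24 h in C24, and Col 24 h replicate 1 lay under the lower quartile. Its ecotype differences were 1.55 ± 0.30 (SE, limma adjusted p = 0.00108) and 1.26 ± 0.30 (SE, limma adjusted p = 0.00474). The second was lost without Col 24 h replicate 1 (0.0548) or C24 24 h replicate 1 (0.051) and with an intensity trend and robust prior (0.0545). The 3 h fall of petG in C24 (-0.80 ± 0.30, SE, limma adjusted p = 0.0486) was lost when C24 room temperature replicate 2 (0.259), C24 3 h replicate 1 (0.064), C24 3 h replicate 2 (0.242) or either Col room temperature array (0.0592 in both cases) was left out, and with that prior (0.188).

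The gene petN was the only member that rose with cold in any comparison. Its arrays read 6.66 and 6.59 at room temperature and 6.86 and 7.30 after 24 h in Col, and 6.77 and 7.15 at room temperature, 7.49 and 7.12 after 3 h and 7.48 and 7.28 after 24 h in C24. In Col both cold arrays lay above both room temperature arrays, and in C24 the 24 h arrays lay above the room temperature arrays. The rise in Col was 0.45 ± 0.17 (SE, limma adjusted p = 0.0437). It was lost without Col room temperature replicate 1 (0.0993), Col room temperature replicate 2 (0.158) or Col 24 h replicate 2 (0.336). Its C24 values were 0.35 ± 0.17 (SE, limma adjusted p = 0.12) after 3 h and 0.43 ± 0.17 (SE, limma adjusted p = 0.0565) after 24 h, and the difference of the 24 h responses was -0.028 (95% interval -0.55 to 0.50).

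The ATP synthase makes ATP from the proton gradient. Its catalytic head holds the products of atpA and atpB, and those of atpE, atpF, atpH and atpI belong to its stalks and membrane part. The atpI arrays read 7.42 and 7.38 at room temperature and 5.35 and 7.56 after 24 h in Col, and 7.29 and 8.37 at room temperature, 7.90 and 7.60 after 3 h and 8.09 and 7.19 after 24 h in C24. Its Col 24 h arrays differed by 2.205, the largest replicate gap of any probe set in that group, and no comparison of atpI was called, with a Col interval of -2.199 to 0.31. For atpA the arrays read 11.08 and 11.01 at room temperature and 9.50 and 10.34 after 24 h in Col, and 10.84 and 11.53 at room temperature, 10.98 and 10.79 after 3 h and 10.67 and 10.09 after 24 h in C24. Both Col cold arrays lay below both Col room temperature arrays, and it was the only ATP synthase gene called in any comparison, with -1.13 ± 0.28 (SE, limma adjusted p = 0.0052) in Col and -0.80 ± 0.28 (SE, limma adjusted p = 0.0312) in C24 after 24 h. The Col fall was lost without Col 24 h replicate 1 (0.0604), and the C24 fall without C24 room temperature replicate 2 (0.263) or C24 24 h replicate 2 (0.23). Both were lost with an intensity trend and robust prior (0.0609 and 0.156).

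The neighbours of atpA in the large ATP synthase cluster had 24 h values in Col of -0.71 ± 0.41 (SE, limma adjusted p = 0.175) for atpF and -0.55 ± 0.33 (SE, limma adjusted p = 0.19) for atpH. In C24 after 24 h the values were -0.53 ± 0.41 (SE, limma adjusted p = 0.324) and -0.77 ± 0.33 (SE, limma adjusted p = 0.0742). The second cluster, atpB with atpE, had narrower intervals, from -0.74 to 0.027 for atpB and -0.62 to 0.067 for atpE in Col after 24 h to -0.38 to 0.39 and -0.27 to 0.42 in C24. Between ecotypes, 0 of the 6 ATP synthase genes were called by limma at room temperature or after 24 h, beside 56.0% and 49.3% of all probe sets, and at an unadjusted p below 0.05 the counts were 1 and 0.

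The arrays of rbcL, which encodes the large subunit of the carbon-fixing enzyme Rubisco, read 10.81 and 10.56 at room temperature and 9.93 and 11.08 after 24 h in Col, and 10.29 and 11.07 at room temperature, 11.12 and 10.78 after 3 h and 11.13 and 10.32 after 24 h in C24. Both Col cold arrays lay outside the range of the Col room temperature arrays, 1 below and 1 above. It was called in no comparison, and its 95% intervals after 24 h were -0.98 to 0.62 in Col and -0.76 to 0.85 in C24. Rubisco activase (RCA), the nuclear-encoded partner that keeps the enzyme active and also one of the green leaf markers, fell after 24 h by limma, with changes of -0.42 (adjusted p = 0.00047) in Col and -0.19 (adjusted p = 0.0442) in C24.

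**Figure D4:**
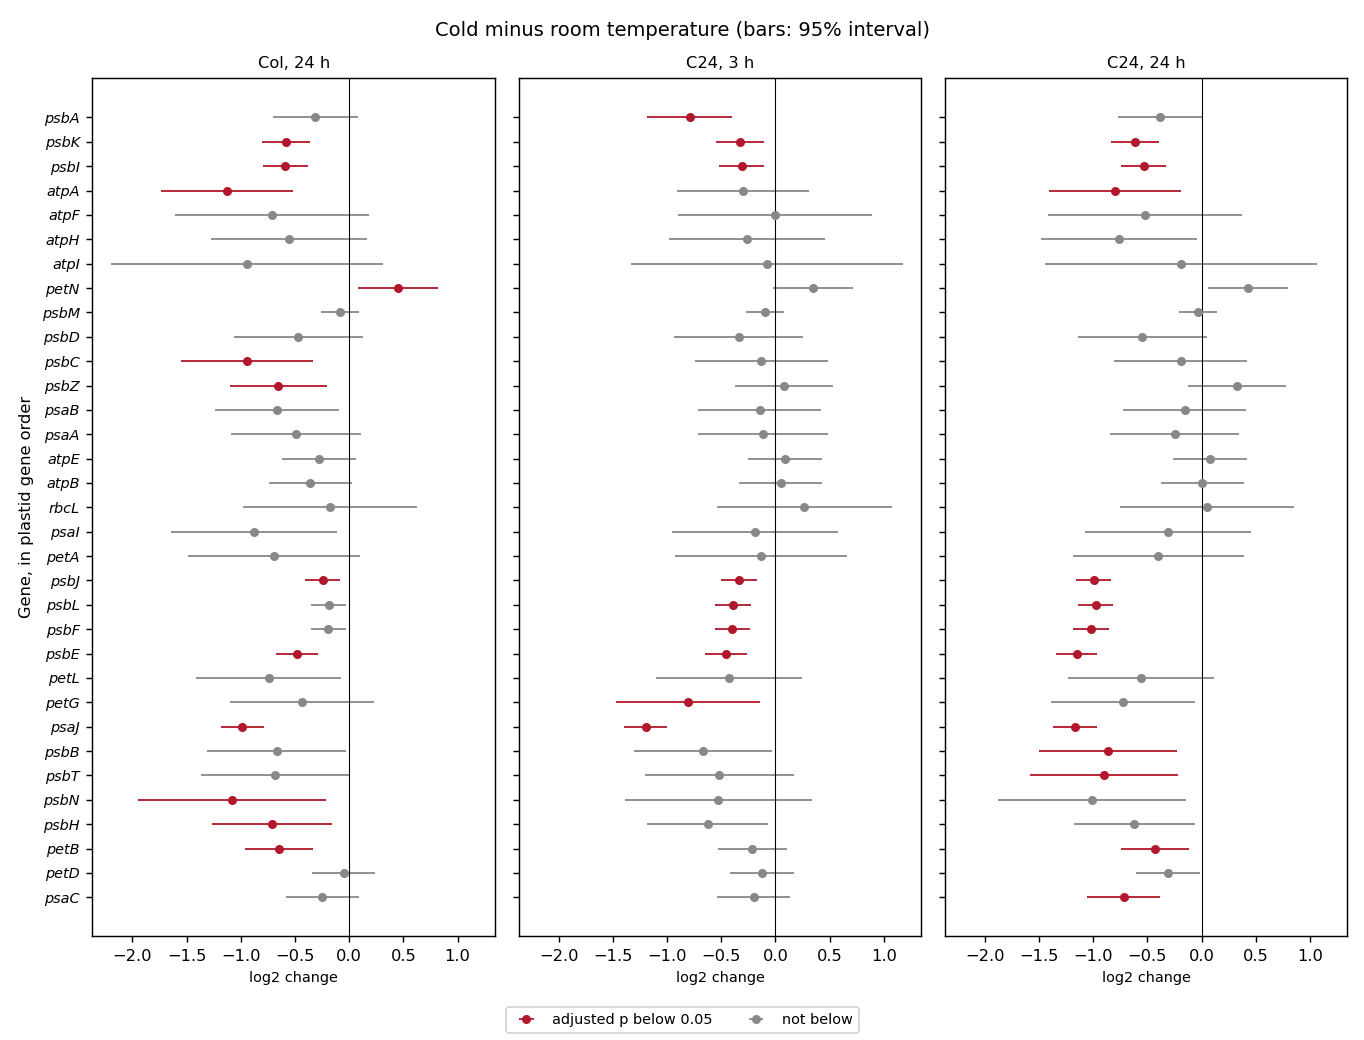
Change of each of the 33 genes between cold and room temperature (log2, x axis) in Col after 24 h, C24 after 3 h and C24 after 24 h, with genes in plastid gene order. Points are differences of group means, bars are 95% intervals from limma, and red marks an adjusted p below 0.05. Most points lie left of 0 (32, 28 and 28 of 33), the psbJ to psbE block has short bars near -1 in C24 after 24 h, and the bars of atpI and psbN are among the widest.

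Between ecotypes, the plastid genes called higher in C24 included members of each complex except the ATP synthase and Rubisco. The lack of a call there does not show equal signals. After 24 h all 6 ATP synthase genes lay above 0 (median 0.51, against 0.49 over the 33 genes). The interval of atpI was -0.070 to 2.44. At room temperature 4 of the 6 lay above 0 (median 0.28, against 0.39). At room temperature 33.3% of the members were called higher, near the 32.7% of all probe sets. In either direction the shares were 36.4% and 56.0%. After 24 h 42.4% of the members were called higher, beside 28.1% of all probe sets. At room temperature the called differences ran from 0.36 for psbM to 1.91 for psaJ, with psbA at 1.83, petL at 1.63, petG at 1.55, psbD at 1.38, psaA at 1.29 and psaC at 1.01. Of the 12 calls in this comparison, 9 held in every alternative other than the 2-fold threshold. After 24 h the higher signals ran from 0.40 for psbM to 1.81 for petL. There the higher calls of psaC, petG, psbH, petB, psbC and psaI did not hold in every alternative other than the 2-fold threshold. Without Col 24 h replicate 1 the difference was 0.24 for psaC, 0.38 for psbH, 0.18 for petB and 0.50 for psaI. Genes of 1 cluster did not always share the difference: psbD was higher in C24 at room temperature by 1.38 while psbC, which overlaps it, was at 0.23 (adjusted p = 0.5), and psaA was at 1.29 while psaB was at 0.061 (adjusted p = 0.855). No test of these contrasts between genes was made. The comparisons of ecotypes share their arrays with those of cold, so the values of a gene in them are not independent. ATH1 probes were designed on the Col genome. A different RNA level and a different match of C24 transcripts to the probes cannot be told apart in a comparison of ecotypes. All 3 measured root markers were lower in C24 by limma at room temperature (median -2.04) and after 24 h (-0.66). The shares of all probe sets lower were 23.4% and 21.2%. Spiked poly-A controls lay higher on every C24 array than on every Col array. The part of tissue make-up and of array handling in the ecotype differences was not tested. The part of probe match in the difference of responses was not tested either.

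**Figure D5:**
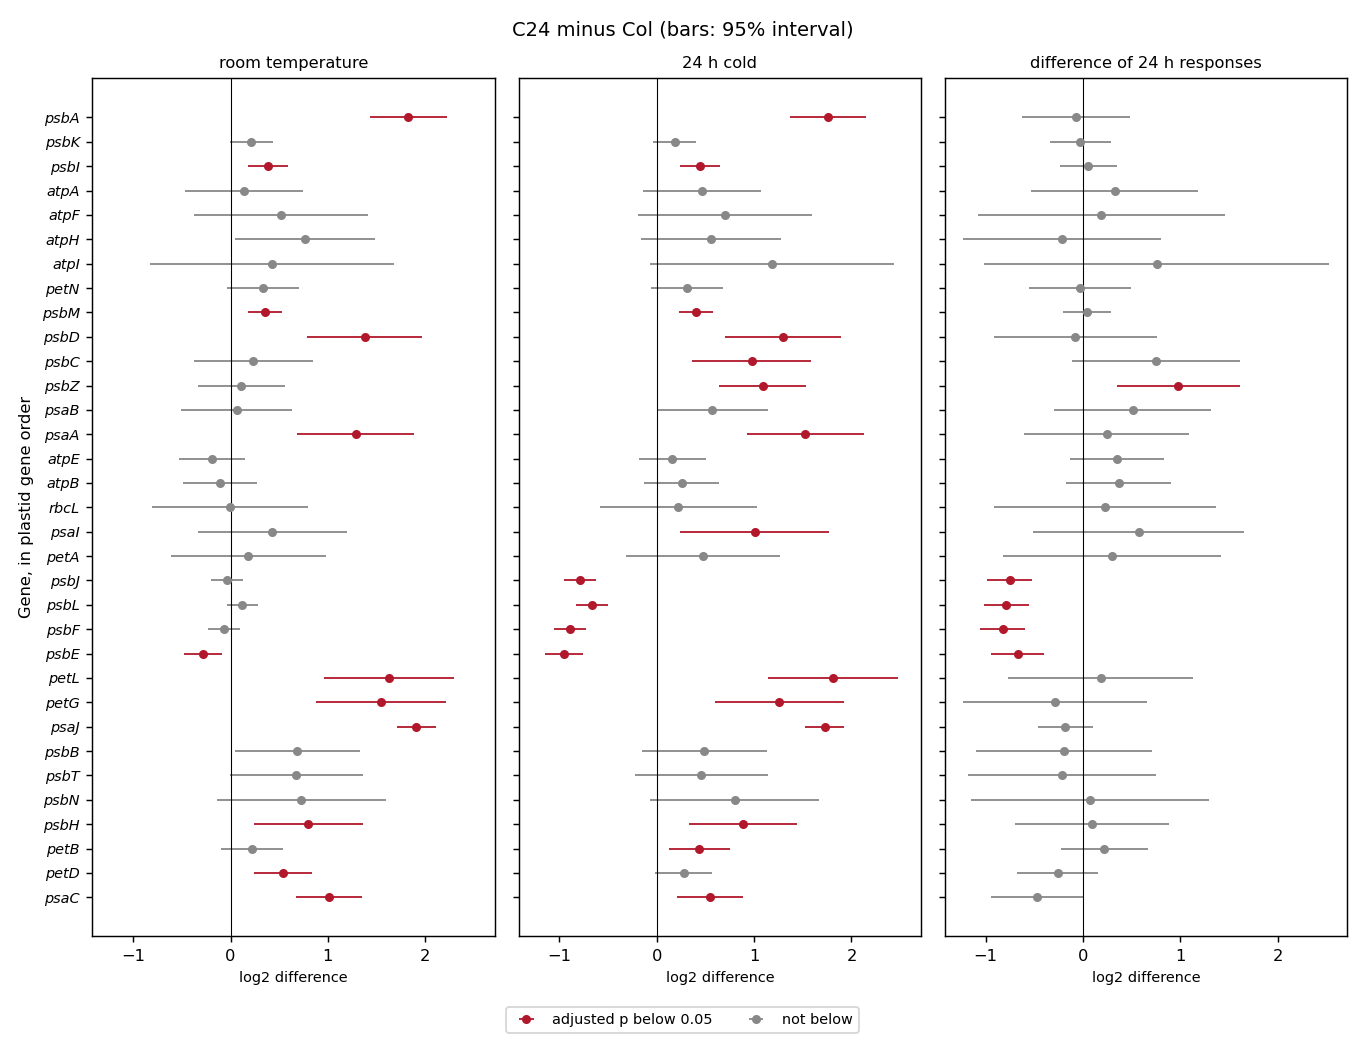
C24 minus Col for each of the 33 genes (log2, x axis) at room temperature, after 24 h of cold, and as the difference of the 24 h responses, in plastid gene order. Points are differences of limma group means, bars are 95% intervals and red marks an adjusted p below 0.05. The psaJ and psbA points lie between 1.72 and 1.91 in the first 2 panels and near 0 in the third, while the psbJ to psbE block leaves 0 after 24 h of cold and in the difference of responses.

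The difference of the 24 h responses, C24 minus Col, was called for 5 of the 33 genes, 4 lower and 1 higher, beside 19.1% lower and 20.4% higher over all probe sets. The 4 lower genes were the complete psbE cluster, and the higher one was psbZ. The median over the 33 genes was 0.054, against -0.025 over all probe sets. The median SE of this difference was 0.36 for the 33 genes and 0.12 over all probe sets.

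The other lists give the surroundings of these changes. They were drawn up with earlier results of these data known and are given as counts and medians. The shares of all probe sets to read them against were 25.9% lower and 23.2% higher in Col, 23.2% and 22.5% after 3 h in C24 and 25.4% and 24.1% after 24 h. Higher in C24 were 32.7% at room temperature and 28.1% after 24 h, and 20.4% for the difference of responses. Of 36 other plastid-encoded genes, 20 fell in Col by limma (median -0.72), 5 fell and 1 rose after 3 h in C24 (-0.12), and 10 fell and 2 rose after 24 h (-0.38). They were higher in C24 in 10 cases at room temperature and 16 after 24 h, and their differences of responses were called in 3 cases, all higher. Of 11 mitochondrially encoded genes, 1 fell and 2 rose in Col, 5 fell after 3 h in C24, and 3 fell and 1 rose after 24 h, while 10 were higher in C24 at room temperature and 5 after 24 h.

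The genes listed as nuclear subunits of the same complexes changed with narrower errors. The list takes in RCA and PSB27, which assist these complexes rather than being subunits, and RCA is counted among the green leaf markers too. Of the 8 listed genes measured, 4 fell in Col and 7 in C24 after 24 h, with 1 fall after 3 h, by limma. The shares of all probe sets lower were 25.9%, 25.4% and 23.2%. PSB27, which assists the repair of photosystem II, fell after 24 h, with changes of -0.58 (adjusted p = 6.77e-05) in Col and -1.02 (adjusted p = 4.97e-07) in C24 and a difference of responses of -0.44 (adjusted p = 0.00647). PSAN, a lumenal subunit of photosystem I, was at -0.095 (adjusted p = 0.307) in Col and fell in C24, with a change of -0.55 (adjusted p = 4.98e-05). Of the 2 measured nuclear factors that act on plastid transcripts, ATAB2 promotes translation of photosystem messengers, and LPA66 is given above with the psbE cluster. By limma ATAB2 rose in Col after 24 h by 0.34 (adjusted p = 0.00245). In C24 it fell after 3 h, with a change of -0.32 (adjusted p = 0.00399), and its change after 24 h was -0.050, not called. The difference of its 24 h responses was called, at -0.39. ATAB2 and LPA66 were higher in C24 than in Col at room temperature by 0.87 and 0.56.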

How the data were processed

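Biotin-labelled cRNA from 1 µg of total RNA was hybridised to 10 ATH1 arrays, with RNA purified on a column kit, per the labels' protocols. Values deposited by the authors are log2 signals from GCOS and RMA, per the submitters' processing notes, which give no versions and do not say whether the 10 arrays were normalised together. All value columns were mapped to samples by title.

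Of 22810 probe sets, 64 controls were left out. Genes came from the platform annotation: 13513 probe sets had exactly 1 gene, 503 several and 8730 none. The 33 members were matched to RefSeq (TAIR10.1) for names and gene order, and 11 mitochondrial genes by symbol. No pseudocount or filter was used. Signals under the lower quartile of an array (25%) were not taken as above background.

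limma 3.58.1 in R 4.3.3 (lmFit, eBayes) fitted 5 group means to 10 arrays for 7 comparisons, with Benjamini-Hochberg adjustment over 22746 probe sets and a threshold of 0.05, and the fit was tested on simulated data. Intervals are 95% and unadjusted. The number of arrays limits the precision. Members, lists, tests and the naming rule (any member, and of another list at most 2 rises and 2 falls, or all of a list of at most 5) were chosen with earlier results of these data known. rpl33 and rps18 were named for their place beside psaJ, after their values were seen. The alternatives normalised quantiles again, centred arrays on their medians, blocked on the replicate number, used an intensity trend with a robust prior, dropped dim probe sets, averaged a gene's probe sets, fitted only the arrays compared, required a 2-fold change or omitted single arrays.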

Additional observations from a re-analysis of the deposited data

Results flagged for a closer look

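For 5 of the 33 genes, limma's test of the difference between the 24 h responses of C24 and Col passed the threshold, 15.2% of them beside 39.5% of all probe sets. The psbE cluster genes had values of -0.67 (adjusted p = 0.00109) for psbE, -0.83 (adjusted p = 7.65e-05) for psbF, -0.79 (adjusted p = 0.000103) for psbL and -0.75 (adjusted p = 0.000141) for psbJ, with the C24 24 h arrays the lowest of all 10 arrays for each of these genes. For psbZ the value was 0.98 (adjusted p = 0.0184), with both Col cold arrays below the Col room temperature arrays and overlapping arrays in C24.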

How the results depend on the processing

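No called gene changed direction under any alternative. Of the single-gene values under the alternatives, 3906 stayed on the same side of the threshold, 136 passed it newly and 142 no longer passed it. The psbE cluster's differences of responses passed in all 17 alternatives other than the 2-fold threshold. With at least 2-fold required in addition, the counts of called genes were 2 in Col after 24 h, 1 in C24 after 3 h, 3 in C24 after 24 h, 0 for 24 h against 3 h, 7 and 8 between ecotypes (room temperature and 24 h), and 0 for the difference of responses. Where this left 0 genes, limma alone called 6 and 5, and 8 and 5 passed at an unadjusted p below 0.05.

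Leaving out 1 array at a time gave 7 to 25 called genes in Col, 6 to 11 in C24 after 3 h, 8 to 18 after 24 h, 4 to 7 for 24 h against 3 h, 10 to 16 at room temperature, 12 to 30 after 24 h between ecotypes and 4 to 10 for the difference of responses. Replicate numbers did not pair the arrays (correlations of replicate differences from -0.12 to 0.12 over all probe sets). With the replicate number as a block the counts were 11, 8, 13, 6, 12, 18 and 5 in the order above, and the calls it ended were the rise of petN in Col (adjusted p = 0.0532) and the 3 h fall of petG in C24 (adjusted p = 0.0591). An alternative chosen after the data were seen, a replicate block with the C24 24 h numbers exchanged (correlation -0.12), gave 29 called genes after 24 h between ecotypes, against 18. The cause of these shifts was not tested. Each gene had 1 probe set, so averaging probe sets repeated the main fit and could change nothing. Its values are counted among those that stayed on the same side of the threshold, and it is 1 of the alternatives that the psbE cluster passed. The replicate SD of 24 of the 33 genes lay above the 95th percentile of all probe sets, and petD (7 arrays), petG (1) and psaC (1) had signals under the lower quartile.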
